A study of Mus musculus with 17 samples.

Results

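The cytosolic ribosomal protein genes code for the protein components of the ribosome that translates nuclear mRNAs. They were taken by symbol, as Rpl or Rps with a number and an optional letter, plus Rplp0, Rplp1, Rplp2 and Rpsa, leaving out pseudogenes. This gave 83 genes of the 28670 measured, 51 of the large and 32 of the small subunit. All 83 passed the filter on low values (2 or more samples with an FPKM of 1 or more), as did 15298 genes in all. FPKM is fragments per kilobase of transcript and per library size, so it compares genes per length. The 83 include 6 paralogs of a canonical gene (Rpl3l, Rpl7l1, Rpl10l, Rpl22l1, Rpl39l and Rps27l). Rpl36al, Fau and Gnb2l1, which also code for ribosomal proteins or a ribosome-bound protein, fall outside the rule.

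RNA-seq was done on 17 mouse samples in 7 groups, to ask whether the canonical reprogramming factors make induced pluripotent stem cells (iPSC) without Nanog, a homeodomain factor of pluripotent cells. Of strain 129/B6 (v6.5) were WT embryonic stem cells (WT ESC 1 and 2, passage 10 to 15), WT iPSC 1, WT piPSC 1 and 2 (partially reprogrammed iPSC of the clone B1), Nanog-null ESC 1 and 2, and clones G2 and G5 of Nanog-null iPSC with 2 samples each, all but the WT ESC at passage 6. Nanog-null is the genotype Nanog -/-. Of strain C57/B6 were WT ESC 3 and 4 and WT iPSC 2 and 3, all at passage 10 to 15, and WT MEF 1 and 2, embryonic fibroblasts at passage 2. The protocols describe Nanog-null MEF sorted for GFP from chimeric E12.5 embryos, retroviruses carrying Klf4, Oct4 and Sox2, to which c-Myc was added in some cases, iPSC and Nanog-null ESC on feeder cells in 2i and LIF, and MEF in 10% FBS. Strain coincides with the prefix of the sample codes, and libraries were sequenced at either of 2 sites with no label saying which, so strain and handling cannot be told apart. The text therefore reads the strains apart. Each iPSC or piPSC clone is 1 line. WT iPSC of 129/B6 has 1 sample, and its spread is taken from the other cells.

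Each ribosome holds about 1 copy of most of these proteins, and cells keep their mRNAs at similar levels. The mRNAs typically begin with a C and a run of pyrimidines, the 5' terminal oligopyrimidine (TOP) tract, through which mTOR signalling and LARP1 control their translation and stability. Growing cells spend much of their mRNA on these genes, and pluripotent cells are known for fast division. Paralogs such as Rpl10l and Rpl3l are known from testis and muscle, and Rpl39l from testis and embryonic stem cells.

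RefSeq lists 75 transcription starts on build GRCm38.p6 for 63 of the 83 members. A C at the listed start followed by at least 4 more C or T was found at 17.3% of the 75, against 2.5% of the 32851 starts of all genes. A run of at least 8 C or T that touched the window from 10 bases before to 15 bases after the start was found at 41.3% against 15.4%. The sequences below run from 20 bases before to 20 bases after the listed start, with the longest such run in capitals. Rpl14, Rpl28, Rps6 and Rps18 show the tract at the start. They include members with the largest changes between strains (Rpl14, Rpl28) and, among the canonical members, in piPSC (Rps18). The genes shown were chosen by hand, and other members with large changes, such as Rpl41, Rpsa and Rplp0, are not shown. A link between the tract and the size of a change was not tested.
Rpl14, chr9:120571497-120571536, plus strand: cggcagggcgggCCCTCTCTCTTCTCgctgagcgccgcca
Rpl28, chr7:4792945-4792984, plus strand: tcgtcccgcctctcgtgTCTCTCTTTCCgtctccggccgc
Rps6, chr4:86857348-86857387, minus strand: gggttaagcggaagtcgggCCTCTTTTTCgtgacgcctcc
Rps18, chr17:33955646-33955685, minus strand: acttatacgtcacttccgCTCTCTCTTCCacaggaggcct
Rps3a fell most among the canonical members in Nanog-null cells, and RefSeq lists it as Rps3a1. Rpl39 is shown with its paralog Rpl39l, followed by Rpl10l and Rpl7l1, whose strain pattern differed from that of most members.
Rps3a, chr3:86142649-86142688, minus strand: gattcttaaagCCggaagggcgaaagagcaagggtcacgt
Rpl39, chrX:37085203-37085242, minus strand: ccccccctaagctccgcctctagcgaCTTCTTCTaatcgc
Rpl39l, chr16:10170208-10170247, plus strand: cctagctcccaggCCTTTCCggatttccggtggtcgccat
Rpl10l, chr12:66284382-66284421, minus strand: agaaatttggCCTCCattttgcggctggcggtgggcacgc
Rpl7l1, chr17:46782637-46782676, minus strand: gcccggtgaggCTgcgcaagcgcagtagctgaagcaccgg
The run had 14 bases at Rpl14, 11 at Rpl28 and Rps18, and 10 at Rps6. It had 8 bases at Rpl39 and 7 at Rpl39l, 5 at Rpl10l, and 2 at Rps3a and Rpl7l1. The ETS motif CCGGAAG, searched on both strands in the 300 bases around the start (250 before, 50 after), was present at 36.0% of the members' starts and 8.9% of all. The YY1 motif GCCATCTT was present at 10.7% against 2.7%, and TATAAA at 9.3% against 13.6%. A listed start need not be the start used in these cells, and a match is a description of letters.

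The samples held 7795960 to 43501951 assigned fragments. Nanog had an FPKM of 568.3, 574 and 762 in WT ESC 1 and 2 and WT iPSC 1 and 27.2 to 49.5 in the 6 Nanog-null samples. The allele's deleted part is not given in the sources used here. It was 3.12 and 2.91 in WT piPSC, where the retroviral factor Pou5f1 (Oct4) reached 6975 and 7303. All 8 pluripotency markers were under an FPKM of 1 in both WT MEF samples. The 9 fibroblast markers summed to an FPKM of 3503 and 3452 in WT MEF, 433 to 1151 in the Nanog-null samples, 169.9 to 243.7 in the 3 WT ESC and WT iPSC samples of 129/B6, and 96.1 to 124.4 in those of C57/B6. In WT piPSC they summed to 75.2 and 20.2. A part of feeder-cell RNA in these libraries was not tested.

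The share of all assigned fragments that came from the 83 genes set pluripotent WT samples apart by strain. It also set Nanog-null apart from WT samples of 129/B6, and WT MEF apart from pluripotent C57/B6 samples. WT piPSC lay within the range of 129/B6 WT ESC and WT iPSC, and WT iPSC 2 and 3 lay between WT ESC 3 and 4. In the 129/B6 WT cells it was 10.10% and 10.42% in WT ESC 1 and 2, 8.47% in WT iPSC 1, and 10.13% and 9.53% in WT piPSC. Nanog-null cells lay lower, at 6.08% and 5.95% in the ESC samples, 6.22% and 6.09% in those of clone G2, and 5.72% and 6.20% in those of G5. In C57/B6 the share reached 28.58% and 21.11% in WT ESC 3 and 4 and 25.48% and 24.28% in WT iPSC 2 and 3. WT MEF had 4.05% and 4.04%. No sample of a strain's pluripotent WT cells overlapped those of the other strain, and the Nanog-null samples overlapped no WT sample of 129/B6.

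The 6 Nanog-null samples averaged 6.04% ± 0.19 (SD, n = 6) and the WT ESC and WT iPSC samples of 129/B6 9.66% ± 1.05 (SD, n = 3), a difference of 3.62 points (2-sided exact permutation p = 0.0238, 0.0952 after Benjamini-Hochberg adjustment over 4 tests). The 4 pluripotent WT samples of C57/B6 averaged 24.86% ± 3.09 (SD, n = 4), 2.57 times the level in 129/B6 (exact permutation p = 0.0571, adjusted 0.114). WT MEF averaged 4.05% ± 0.0028 (SD, n = 2) against those 4 samples (exact permutation p = 0.133, adjusted 0.178). Each of these p-values is the smallest its numbers of samples allow. The permutation takes each sample as a unit, although samples of 1 clone share a line, so it does not cover the spread between lines. WT piPSC, at 9.83% ± 0.42 (SD, n = 2), did not differ detectably from WT ESC and WT iPSC of 129/B6 (exact permutation p = 1, where 0.2 is the smallest possible). As a share of summed FPKM, WT piPSC held 28.45% and 27.52%. WT ESC 1 and 2 held 24.03% and 27.30%, and WT iPSC 1 held 23.80%, with no overlap (exact permutation p = 0.2). On that measure the pluripotent C57/B6 mean was 1.75 times that of 129/B6, and the WT MEF mean was 0.330 times the pluripotent C57/B6 mean. The Nanog-null mean was 0.706 times that of 129/B6 WT ESC and WT iPSC. No label says that the replicates are separate cultures, and the p-values then cover the spread among these libraries alone, which may be technical. In bulk RNA, fewer cells of a type and less RNA per cell cannot be told apart.

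**Figure D1:**
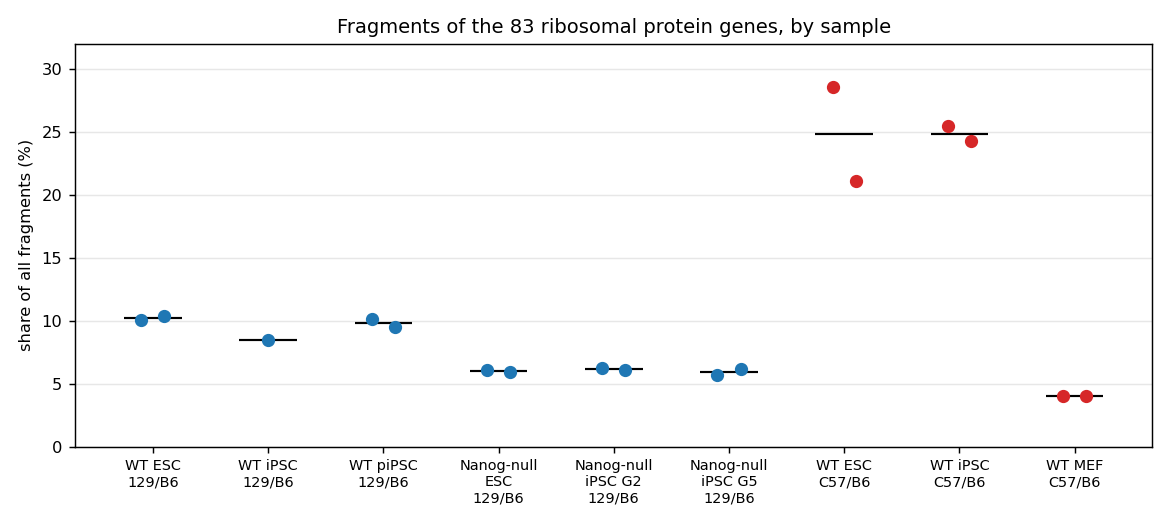
Share of all assigned fragments (%) from the 83 ribosomal protein genes, 1 point per sample and a line at each mean, in blue for 129/B6 and red for C57/B6. The C57/B6 WT ESC and WT iPSC samples lie between 21.1% and 28.6%, the Nanog-null samples between 5.72% and 6.22%, and WT MEF at 4.05% and 4.04%.

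The members were among the most abundant mRNAs. Of the 100 genes with most fragments, they made up 60 to 66 in the pluripotent C57/B6 samples and 5 in each WT MEF sample. In 129/B6 they made up 44 and 46 in WT ESC 1 and 2, 37 in WT iPSC 1, 50 and 46 in WT piPSC and 24 to 27 in the Nanog-null samples. Rplp1, a stalk protein that helps recruit elongation factors, had the highest mean FPKM. It read 4589.6 and 4878 in WT ESC 1 and 2, 4210.2 in WT iPSC 1 and 5719 and 5178 in WT piPSC. In Nanog-null cells it read 3421 and 3239.8 in ESC, 3376 and 3119 in G2 and 3003 and 3151 in G5. C57/B6 samples read 26684 and 14919 in WT ESC, 22222 and 21287 in WT iPSC and 2553 and 2581 in WT MEF. The pluripotent C57/B6 samples were the highest, the Nanog-null samples overlapped none of 129/B6 WT, and WT MEF was the lowest.

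The other 4 large-subunit genes of highest mean kept this order. Rpl13a, which is also known for a role in silencing inflammatory mRNAs, read 3836, 4028 and 3957 in 129/B6 WT ESC and WT iPSC, 3548 and 3508 in WT piPSC and 2398 to 2671 (median 2602) in the 6 Nanog-null samples. The C57/B6 values were 22944, 12766, 19008 and 17344 in WT ESC 3 and 4 and WT iPSC 2 and 3, and 1446 and 1485 in WT MEF. Rpl13a was thus a little lower in both piPSC samples than in WT, and lower still in every Nanog-null sample. Rpl32 read 3504, 3623 and 2722 in the same 129/B6 WT samples, 3586 and 3274 in WT piPSC and 1824 to 2124 (median 2047) in Nanog-null cells. Its C57/B6 values were 18270.2, 10036, 14979 and 13306 in pluripotent cells and 1354 and 1361 in WT MEF, the lowest of all its samples. Rpl41, which codes for a very short, basic peptide, read 2658, 2731 and 2440.3, 2435 and 2083 and 1679 to 1912 (median 1852) in these 3 sets of 129/B6 samples. It read 18872, 10152, 16038 and 13482 in pluripotent C57/B6 cells and 1654 and 1665 in WT MEF. Rpl23a, a protein at the exit of the peptide tunnel, read 3108, 3186 and 2633, 3461 and 3029 and 1650.0 to 1816 (median 1704) in the 129/B6 sets. It read 14508, 8464, 12531 and 11270.5 in pluripotent C57/B6 cells and 1212 and 1266 in WT MEF.

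The 5 highest small-subunit genes did the same. Rps12 read 4087, 4347 and 4008 in WT ESC 1 and 2 and WT iPSC 1, 4452 and 4128 in WT piPSC and 2683 to 3111 (median 2908) in Nanog-null cells. It read 21969, 11492, 17520.5 and 15727 in pluripotent C57/B6 cells and 2026 and 2031 in WT MEF. Rps24, one of the genes mutated in Diamond-Blackfan anaemia, read 4396, 4668 and 3535, 3972 and 3593 and 2203 to 2537 (median 2350.4) in the 129/B6 sets. Its piPSC values lay between those of WT iPSC 1 and WT ESC. It read 20134, 10424, 15936 and 14832 in pluripotent C57/B6 cells and 1877 and 1904 in WT MEF. Rps23, a protein of the decoding centre, read 3833, 3840.1 and 3435, 3211 and 2949 and 2064 to 2415 (median 2317) in the 129/B6 sets, with both piPSC samples under every WT ESC and WT iPSC sample. It read 18937, 10446, 15341 and 14129.5 and, in WT MEF, 1298 and 1298. Rps27 read 2985, 3508 and 2598, 3638 and 3223 and 1909.8 to 2172 (median 2088) in the 129/B6 sets, and 15469.7, 8832, 13125 and 12321 in pluripotent C57/B6 cells. In WT MEF it read 1358 and 1386, again the lowest. Rps28 read 2749, 2819 and 2433, 2749 and 2426 and 1913 to 2320.2 (median 2146) in the 129/B6 sets. It read 13978, 7876, 11202 and 10636 in pluripotent C57/B6 cells and 1012 and 1022 in WT MEF.

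In the sample values as a whole, 79 of 83 members were higher in each of the 4 pluripotent C57/B6 samples than in every other sample, a pattern found for 18.2% of the 15298 genes tested. The exceptions were Rpl3l, Rpl7l1, Rpl10l and Rpl39l. The 6 Nanog-null samples lay below the 3 WT ESC and WT iPSC samples of 129/B6 for 80 members, against 27.1% of genes, with Rpl36, Rpl39l and Rpsa as exceptions. Both WT MEF samples were the lowest for 65 members, against 20.1% of genes.

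Between the strains, nearly the whole family stood higher in C57/B6. In WT ESC, 79 members were higher and 2 lower in C57/B6 by edgeR's quasi-likelihood test at an adjusted p under 0.05, where 34.8% and 35.0% of all genes tested were called higher and lower. The median member stood 1.85 higher on the log2 scale (3.6-fold) against a median of 0.00 over all genes. In WT iPSC, 80 were higher and 2 lower, against 38.4% and 34.7% of all genes, with a median of 2.16 against 0.08. The 129/B6 side of the iPSC comparison is 1 sample, at passage 6, against passage 10 to 15 in C57/B6. Both subunits moved alike in WT ESC, with medians of 1.83 for the large and 1.86 for the small subunit. The 77 members other than the paralogs were all called higher in both comparisons, from 1.05 (Rpl15) to 2.62 (Rpl14) in WT ESC. These directions held under each scaling of the libraries but the one on the members' own summed fragments, which sets the family's median near 0 by construction (16 higher and 17 lower in WT ESC). Without WT ESC 3 the WT ESC median was 1.42 and without WT ESC 4 it was 2.19.

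The largest strain differences were those of Rpl14, Rpl28 and Rpl41 in WT ESC and of Rpsa, Rpl28 and Rpl14 in WT iPSC. Rpl14 read 1183 and 1289 in WT ESC 1 and 2 and 9878 and 5469 in WT ESC 3 and 4, a log2 difference of 2.62 ± 0.19 (SE; edgeR adjusted p 5.10e-09). It read 1254 in WT iPSC 1, 8185 and 7337 in WT iPSC 2 and 3, 1674 and 1587 in WT piPSC, 822 to 1107 (median 940.4) in Nanog-null cells and 835 and 836 in WT MEF. The groups of 129/B6 and C57/B6 pluripotent WT cells did not overlap. Rpl28 read 1275 and 1266 against 9905 and 5717 in WT ESC of the strains, a difference of 2.61 ± 0.18 (SE; edgeR adjusted p 2.97e-09). It read 1254 against 8404 and 7181 in WT iPSC, 1762 and 1770.3 in WT piPSC, 730.4 to 1010.0 (median 887) in Nanog-null cells and 853 and 859 in WT MEF. Rpl41, whose values are given above, differed by 2.41 ± 0.20 (SE; edgeR adjusted p 2.27e-08) in WT ESC. Rpsa, also known as a laminin receptor, differed by 2.67 ± 0.23 (SE; edgeR adjusted p 2.58e-08) in WT iPSC, where WT iPSC 1 read 940.1 and WT iPSC 2 and 3 read 6157 and 5622. Its other samples read 1537 and 1548 in WT ESC 1 and 2, 7206 and 4274 in WT ESC 3 and 4, 1709.5 and 1638 in WT piPSC, 857 to 940.3 (median 902) in Nanog-null cells and 711 and 731 in WT MEF. WT iPSC 1 thus lay within the Nanog-null range for Rpsa. The strain difference of Rpl15, a large-subunit protein needed for pre-rRNA processing, was 1.05 in WT ESC, with 833 and 879.7 and 2460.0 and 1679 in the samples of the strains.

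Length moved with the strain difference. The members are short, with a median length implied by FPKM and scaled fragments of 0.503 kb, against 2.12 kb for all genes tested. Fragments of non-member genes shorter than 1 kb made up 11.99% to 12.6% of non-member fragments in WT ESC and WT iPSC of 129/B6, 21.65% to 28.0% in those of C57/B6, and 7.43% and 7.46% in WT MEF. In WT ESC, non-members under 0.5 kb had a median strain difference of 0.975 on the log2 scale, those of 0.5 to 1 kb 1.04, those of 1 to 2 kb 0.34, those of 2 to 4 kb -0.25 and longer ones -0.92. Members had medians of 1.95, 1.77 and 1.47 in the first 3 of these bins (41, 32 and 9 members), so they stood above non-members of like length. Across the 83 members, Spearman's rho between the difference and length was -0.54, a description over genes that share libraries. The part of length, sequencing site or strain in the difference was not tested.

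Fibroblasts held the family at its lowest level within C57/B6. All 83 members were lower in WT MEF than in WT ESC 3 and 4, where 41.9% of genes tested were called lower and 40.2% higher, and no member was higher. The median member fell by 3.02 on the log2 scale, 8.1-fold, against a median of -0.04 over all genes, and this held under each scaling but the one on the members' own sum. The median was -2.57 without WT ESC 3 and -3.36 without WT ESC 4. Leaving out Rpl3l, with 1 and 0 fragments in WT MEF, and Rpl10l, with none, the members ranged from -3.72 (Rps14) to -0.67 (Rpl7l1). With Rpl10l at its bound and without Rpl3l, the median was -3.01. Length moved with this comparison too. The median change of non-members was -2.25 under 0.5 kb, -1.72 from 0.5 to 1 kb and -0.64 from 1 to 2 kb, against -3.15, -2.93 and -3.02 for members. The part of length in this comparison was not tested. The pluripotency markers moved with the family here, and their part in it was not tested.

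Rps14 and Rps27a fell most among the canonical members in WT MEF. Rps14, a small-subunit protein whose loss is known from a myelodysplastic syndrome, changed by -3.72 ± 0.20 (SE; edgeR adjusted p 2.55e-11), with 13192 and 7107 in WT ESC 3 and 4 and 834 and 849 in WT MEF. It read 10517 and 9181 in WT iPSC 2 and 3, 2702, 2893 and 2112 in the 129/B6 WT ESC and WT iPSC samples, 2531 and 2379.9 in WT piPSC and 1399 to 1540.3 (median 1504) in Nanog-null cells. Rps27a, made as a fusion with ubiquitin, changed by -3.52 ± 0.21 (SE; edgeR adjusted p 1.04e-10), with 12491 and 6436 in WT ESC 3 and 4 and 837 and 789 in WT MEF. It read 9938 and 8617 in WT iPSC 2 and 3, 2688, 2861 and 2242 in the 129/B6 WT ESC and WT iPSC samples, 2440.2 and 2304 in WT piPSC and 1431 to 1655 (median 1531) in Nanog-null cells. Measured against the family's own sum, 17 members were called as taking a larger and 23 a smaller part of it in WT MEF. On this scale gains and losses offset each other by construction, and the median of all genes was 2.82. The share of all genes called on it is not reported here. Rpl7l1, Rplp2, Rpl15, Rps9 and Rplp0 gained most, with log2 changes of 2.24, 0.86, 0.86, 0.75 and 0.65. Rps14, Rps27a and Rps23 lost, with -0.73, -0.52 and -0.48, beside Rpl10l, which had no fragments.

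WT iPSC and WT ESC of C57/B6 did not differ for any member at the threshold, where 0.150% of genes were called higher and 0.0784% lower by edgeR. No member had an unadjusted p under 0.05 either, and DESeq2 and limma called none. The median member change was 0.07 on the log2 scale against 0.06 over all genes. WT ESC 3 and 4 disagreed, since all 83 members had a higher FPKM in WT ESC 3, as did 54.3% of genes tested. Without WT ESC 3, 80 members were called higher in WT iPSC with a median of 0.52, and without WT ESC 4, 7 were called lower with a median of -0.26. The comparison therefore rests on these libraries, which held 12743191 and 7795960 fragments. The change from ESC to iPSC differed between the strains by a median of 0.34, with 4 members called higher and 1 lower, where 12.1% and 8.82% of genes were. Rpl3l and Rpl13 were among those higher, and Rpl10l was the one lower. Rpl13 read 2876, 2843 and 1503 in WT ESC 1 and 2 and WT iPSC 1, and 9064, 5442, 7712 and 7054 in WT ESC 3 and 4 and WT iPSC 2 and 3, a difference of 0.996 ± 0.26 (SE; edgeR adjusted p 0.012). Its other samples read 2193 and 2099.9 in WT piPSC, 1037 to 1167 (median 1133) in Nanog-null cells and 872 and 865 in WT MEF. For Rpl13, WT iPSC 1 lay far below WT ESC 1 and 2, while the C57/B6 cells overlapped.

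Nanog-null ESC had less of nearly every member than WT ESC of the same strain. In Nanog-null ESC, 74 members were lower and 1 higher than in WT ESC 1 and 2, where 31.8% and 34.9% of genes tested were called lower and higher. The median member fell by 0.78 on the log2 scale, or 1.7-fold, against a median of 0.03 over all genes. It fell by 0.72 to 0.81 with any 1 of the 4 samples left out, with 62 to 69 members called. In Nanog-null iPSC against WT iPSC 1, 52 were lower and none higher, against 31.7% and 32.9% of genes, with a median of -0.47 against 0.01. This comparison has 1 WT sample. Over its alternatives on the scale of all genes, the members called ranged from 28 by limma on log2(FPKM + 0.1) to 78 with the 129/B6 samples alone. Without sample 1 of clone G5, 32 were called. Both falls held under each scaling but the one on the members' own sum, where 20 rose and 17 fell in ESC. Non-members under 0.5 kb had medians of -0.13 in Nanog-null ESC and -0.09 in Nanog-null iPSC, and those over 4 kb 0.18 and 0.03. This range over length was smaller than that between strains. Members under 0.5 kb had medians of -0.70 and -0.45. Across the 83 members, Spearman's rho between change and length was -0.33 and -0.29. The part of length in these comparisons was not tested. WT ESC 1 and 2 were at passage 10 to 15 and Nanog-null ESC at passage 6, while WT iPSC 1 was at passage 6, like the clones. The culture described above names iPSC and Nanog-null ESC but not WT ESC. The part of passage or culture in the ESC comparison was not tested.

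The fibroblast markers moved with genotype, since all 9 were at or above an FPKM of 1 in every Nanog-null sample (as in WT iPSC 1, against 8 of 9 in WT ESC 1 and 2) and summed to 433 to 1151, against 169.9 to 243.7 in the WT samples of 129/B6. The 8 pluripotency markers had lower sums in Nanog-null cells, 2593 to 4538 against 6574 to 9097 in these WT samples. Dppa5a alone read 1505 to 3376 against 4384 to 6872, and the list includes Nanog itself. Each marker but Zfp42 was lower in every Nanog-null sample than in these WT samples. Zfp42 read 112.2 to 144.8 in Nanog-null cells, 226.6 and 220.4 in WT ESC 1 and 2 and 55.3 in WT iPSC 1. The part of either list in the result was not tested. Within the Nanog-null cells clone G2 had marker sums of 1079 and 1151, with a members' share of 6.22% and 6.09%, and G5 had marker sums of 432.9 and 434.6, with a share of 5.72% and 6.20%. The shares of the clones overlapped, while their marker sums did not.

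**Figure D2:**
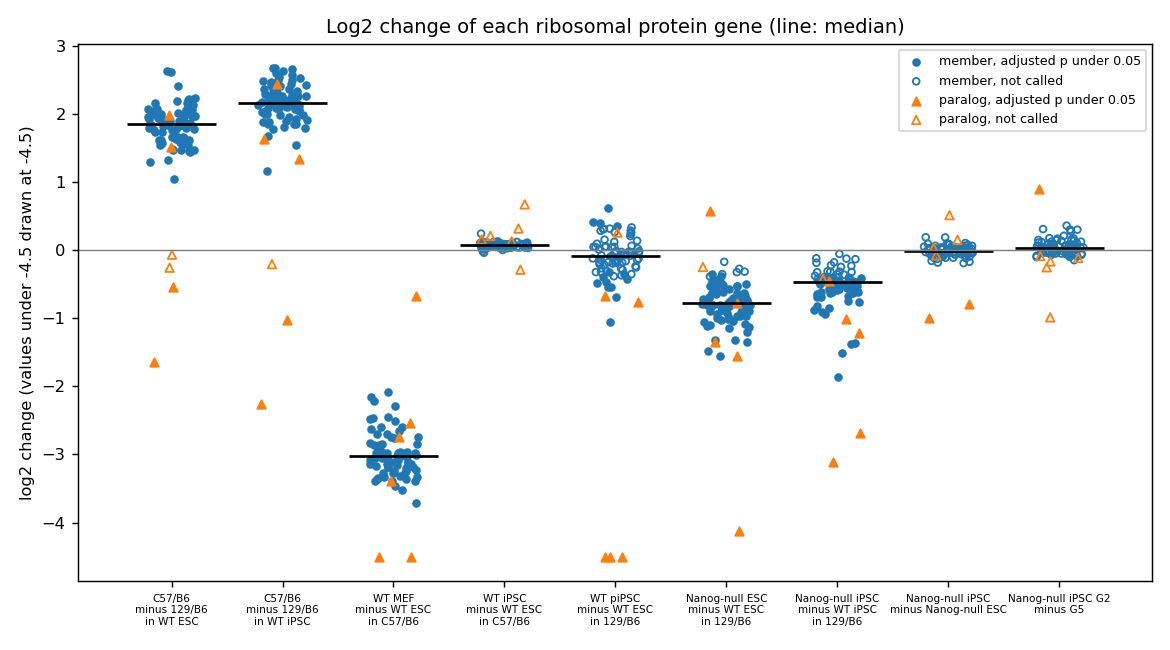
Log2 change (y axis) of each of the 83 members in 9 comparisons, with paralogs as triangles, filled symbols for an edgeR adjusted p under 0.05, and a line at the median, with values under the axis range set at its lower end. Medians are 1.85 and 2.16 between strains, -3.02 in WT MEF and -0.78 and -0.47 in Nanog-null cells, and they are near 0 in the other comparisons. On the scale of the members' own sum these medians are near 0 by construction.

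Rps3a and Rpl34 fell most among the canonical members in both Nanog-null comparisons, which share no sample. Rps3a read 1449 and 1544 in WT ESC 1 and 2, 1865 in WT iPSC 1 and 2152 and 1878 in WT piPSC. It read 506 and 483 in Nanog-null ESC, 511 and 517 in G2 and 468 and 525 in G5, with no overlap. Its change was -1.56 ± 0.15 (SE; edgeR adjusted p 1.66e-07) in ESC and -1.86 ± 0.15 (SE; edgeR adjusted p 1.97e-08) in iPSC. In C57/B6 it read 7742, 5006, 7042 and 6425 in pluripotent cells and 962 and 971 in WT MEF. These C57/B6 samples were all above the Nanog-null ones for this small-subunit gene, across a strain split that cannot be told apart from handling. Rpl34 read 1191, 1424 and 1355 in WT ESC 1 and 2 and WT iPSC 1, 1513 and 1346 in WT piPSC, 446 and 449 in Nanog-null ESC, 449.5 and 467 in G2 and 447 and 520.5 in G5. It changed by -1.49 ± 0.18 (SE; edgeR adjusted p 1.79e-06) in ESC and -1.51 ± 0.18 (SE; edgeR adjusted p 1.67e-06) in iPSC. C57/B6 samples read 7277, 4210.0, 6088 and 5749 in pluripotent cells and 1000.1 and 994 in WT MEF. Pseudogene copies of ribosomal protein genes are common in the mouse genome, and how their reads were split between copies is not given in the sources used here.

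Against the family's own sum, 20 members were called as taking a larger and 17 a smaller part of it in Nanog-null ESC. Gains and losses offset each other by construction on this scale. The median of all genes on it was 0.82 in Nanog-null ESC and 0.54 in Nanog-null iPSC. The share of all genes called on it is not reported here. Rps21 and Rps9 gained, with log2 changes of 0.62 and 0.48, beside the paralogs Rpl39l and Rps27l. Rps3a, Rpl34 and Rpl39 lost, with -0.76, -0.69 and -0.55. In Nanog-null iPSC, 9 gained and 13 lost, with Rpsa at 0.47 and Rps20 at 0.41 on one side. On the other stood Rps3a at -1.33, Rpl34 at -0.99 and Rplp0 at -0.85.

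Between Nanog-null ESC and iPSC, and between the clones, few members differed. Against Nanog-null ESC, 2 members were lower in the iPSC clones and none higher, where 12.9% and 13.1% of genes were called. The median change was -0.01 against -0.01 over all genes. Between the clones, 1 member was higher in G2 and none lower, where 7.91% and 6.31% of genes were called, with a median of 0.04. All 3 calls fell on the paralogs Rpl10l and Rpl39l. The 77 members other than the paralogs ranged from -0.19 (Rps13) to 0.19 (Rpl39) between iPSC and ESC, and from -0.15 (Rpl3) to 0.36 (Rpl28) between clones.

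Partially reprogrammed cells differed from WT ESC in some members, while the family's median stayed near 0. Against WT ESC 1 and 2, 4 members were higher and 15 lower in WT piPSC, where 33.8% and 42.2% of genes tested were called higher and lower. The median was -0.09 against -0.14 over all genes. WT piPSC was at passage 6 and WT ESC 1 and 2 at passage 10 to 15. Without any 1 of the 4 samples, 10 to 13 members were called, and 11 by limma on log2(FPKM + 1), while a fit of the 129/B6 samples alone called 44. The c-Myc gene, which some retroviral mixes carried, had an FPKM of 1237 and 1506 in WT piPSC and 4.21 and 2.84 in WT ESC 1 and 2, and reads of transgene and endogenous gene cannot be told apart.

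Rps18 fell most among the canonical members in WT piPSC. It read 3501 and 3790.1 in WT ESC 1 and 2, 2749 in WT iPSC 1 and 1948 and 1721 in WT piPSC, a change from WT ESC of -1.05 ± 0.17 (SE; edgeR adjusted p 2.65e-05). The piPSC samples lay near the Nanog-null samples, which read 1653 to 1944 (median 1772). In C57/B6 this gene of a small-subunit head protein read 14079.9, 8314, 11147 and 10263 in pluripotent cells and 1155 and 1105 in WT MEF. Rplp0, the scaffold of the stalk and a common reference gene in quantitative PCR, rose most. It read 1524 and 1451 in WT ESC 1 and 2, 1852 in WT iPSC 1 and 2669 and 2419 in WT piPSC, a change of 0.61 ± 0.13 (SE; edgeR adjusted p 0.000446). It read 665 and 653 in Nanog-null ESC, 725 and 699.5 in G2 and 584 and 603 in G5, log2 changes of -1.12 in ESC and -1.38 in iPSC. C57/B6 samples read 7037, 5434, 7117 and 6101 in pluripotent cells and 1302 and 1368 in WT MEF.

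The other members called higher in WT piPSC were Rps9, Rpl28 and Rps3a. Rps9 changed by 0.41 ± 0.15 (SE; edgeR adjusted p 0.0202), with 1479.6 and 1529 in WT ESC 1 and 2, 1419 in WT iPSC 1 and 2148 and 2073 in WT piPSC. It read 947 to 1184 (median 1131) in Nanog-null cells, 5775, 3608, 5159.6 and 4717 in pluripotent C57/B6 cells and 980.0 and 997 in WT MEF. Rpl28 changed by 0.40 ± 0.17 (SE; edgeR adjusted p 0.0442) and Rps3a by 0.36 ± 0.15 (SE; edgeR adjusted p 0.04). For Rps9 and Rps3a the call was lost without WT ESC 1, WT ESC 2 or WT piPSC 1, and for Rpl28 without any 1 of the 4 samples, so these 3 small rises rest on both pairs. Against the family's own sum, Rps18 fell by 0.95 and Rpl21 by 0.57 on the log2 scale in WT piPSC.

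The paralogs parted from their partners. Rpl10l (ENSMUSG00000060499), a retrogene copy of Rpl10 known for its role in male meiosis, read 72.5 and 67.4 in WT ESC 1 and 2 and 119 in WT iPSC 1. It read 0.386 and 0.250 in WT piPSC, from 11 and 7 fragments, a change from WT ESC of -7.82 ± 0.19 (SE; edgeR adjusted p 5.90e-15). In Nanog-null cells it read 22.8 and 23.5 in ESC, 12.6 and 12.1 in G2 and 14.3 and 15.4 in G5. It fell by 1.55 in Nanog-null ESC and by 3.11 in Nanog-null iPSC on the log2 scale (edgeR adjusted p 5.04e-09 and 2.50e-12), and it was lower in the clones than in Nanog-null ESC, with a change of -0.79 ± 0.10 (SE; edgeR adjusted p 2.22e-05). In C57/B6 it read 25.6 and 19.4 in WT ESC 3 and 4 and 26.0 and 23.3 in WT iPSC 2 and 3. Against the family's direction it was lower there than in 129/B6, with differences of -1.64 ± 0.12 (SE; edgeR adjusted p 1.16e-08) in ESC and -2.26 ± 0.13 (SE; edgeR adjusted p 4.95e-10) in iPSC. The change from ESC to iPSC differed between strains by -0.61 ± 0.18 (SE; edgeR adjusted p 0.025), a call lost without WT ESC 2, WT ESC 3 or WT iPSC 3. WT MEF had 0 fragments in both samples, which allows a CPM (counts scaled to library size) of 0.105 over the group (3 counts, counting error only), so Rpl10l was at least 148-fold lower than in WT ESC 3 and 4.

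Rpl10, the partner, joins late in 60S assembly and was not low in WT piPSC. It read 1913, 2044 and 1804 in WT ESC 1 and 2 and WT iPSC 1, 2485 and 2308 in WT piPSC and 1309 to 1497 (median 1466) in Nanog-null cells. It read 7392, 4907, 6503 and 6039 in pluripotent C57/B6 cells and 1145 and 1135 in WT MEF. Rpl10l stood at 6.61% of Rpl10 in WT iPSC 1, at 3.79% and 3.30% in WT ESC 1 and 2, at 0.838% to 1.58% in Nanog-null samples, and at 0.0155% and 0.0109% in WT piPSC. The longest exact stretch the transcripts of Rpl10l and Rpl10 share is 23 bases.

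Rpl39l (ENSMUSG00000039209) was the 1 member called higher in Nanog-null ESC. It read 35.3 and 33.96 in WT ESC 1 and 2, 60.3 in WT iPSC 1, and 0.141 and 0.159 in WT piPSC, from 3 fragments in each. Its change in WT piPSC was -7.87 ± 0.30 (SE; edgeR adjusted p 3.09e-13). It read 48.9 and 51.7 in Nanog-null ESC, 34.6 and 35.1 in G2 and 18.7 and 18.5 in G5. The rise in Nanog-null ESC against WT ESC was 0.57 ± 0.14 (SE; edgeR adjusted p 0.00171), lost by limma on log2(FPKM + 0.1). In Nanog-null iPSC against WT iPSC 1 it went the other way, with a change of -1.22 ± 0.15 (SE; edgeR adjusted p 1.75e-06), and this call held in 14 of 14 alternatives. The difference between these changes was not tested. The clones lay below Nanog-null ESC, with a change of -0.995 ± 0.12 (SE; edgeR adjusted p 1.16e-05), and G2 lay above G5 by 0.90 ± 0.15 (SE; edgeR adjusted p 0.000458), with no overlap of the samples. In C57/B6 it read 28.9 and 16.98 in WT ESC 3 and 4, 32.03 and 26.4 in WT iPSC 2 and 3 and 5.25 and 3.37 in WT MEF, from 25 and 39 fragments. It was lower in C57/B6 than in 129/B6, with differences of -0.54 ± 0.17 (SE; edgeR adjusted p 0.00836) in ESC, a call lost without WT ESC 4, and of -1.02 ± 0.17 (SE; edgeR adjusted p 4.95e-05) in iPSC. Rpl39, its X-linked partner, read 1597, 1849.8 and 1149 in WT ESC 1 and 2 and WT iPSC 1, 1799.7 and 1586 in WT piPSC and 657 to 854 (median 718) in Nanog-null cells. It read 7768, 4117, 6238 and 5611 in pluripotent C57/B6 cells and 674 and 661 in WT MEF. Rpl39l was 7.42% and 7.87% of Rpl39 in Nanog-null ESC and 2.21% and 1.84% in WT ESC 1 and 2. It was 4.79% and 4.62% in G2 and 2.62% and 2.17% in G5, all below the 5.25% of WT iPSC 1. Their transcripts share an exact stretch of 38 bases, and reads within it cannot be told apart.

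Rpl3l, known as the striated-muscle copy of Rpl3, had few fragments in every sample. It read 2.58, 2.48 and 1.26 in WT ESC 1 and 2 and WT iPSC 1, from 48 to 88 fragments, and 0.0247 and 0.0350 in WT piPSC, from 1 fragment in each. In Nanog-null cells it read 0.0780 to 0.327 (median 0.181), from 3 to 11 fragments, in C57/B6 pluripotent cells 2.84, 1.16, 3.65 and 2.99, and in WT MEF 0.0916 and 0. The strain difference of its change from ESC to iPSC, 1.59 ± 0.52 (SE; edgeR adjusted p 0.0384), was lost in 10 of 15 alternatives. Rpl3, the core protein of the peptidyl transferase region, read 2502, 2466 and 1702, 1990.1 and 2186 and 1079.7 to 1287 (median 1178) in the 129/B6 WT, piPSC and Nanog-null samples. It read 8424, 5594, 7336 and 6868 in pluripotent C57/B6 cells and 792 and 801 in WT MEF. Rpl3l was at most 0.103% of Rpl3 in any sample.

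Rpl7l1, a protein of ribosome assembly, took a smaller part of the family's sum in C57/B6 than in 129/B6 WT ESC, with a log2 difference of -1.80 ± 0.17 (SE; edgeR adjusted p 2.07e-07). It read 95.2, 97.7 and 117 in WT ESC 1 and 2 and WT iPSC 1, 62.7 and 56.6 in WT piPSC and 52.9 to 64.0 (median 54.7) in Nanog-null cells. It read 101, 87.4, 103 and 96.6 in pluripotent C57/B6 cells and 57.2 and 60.4 in WT MEF. Its strain difference in WT ESC against all genes was -0.07 ± 0.10 (SE; edgeR adjusted p 0.543), which did not pass. At an implied length of 2.43 kb it is the longest member. Rpl7 read 1914, 2067 and 1695, 2263 and 2026 and 1082 to 1232 (median 1141) in the same 129/B6 sets, 6555, 4782, 6289 and 5482 in pluripotent C57/B6 cells and 978 and 994 in WT MEF.

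Rpl22l1, which can take the place of Rpl22, and Rps27l, known as a p53 target, followed the family between strains. Rpl22l1 read 439, 530.4 and 287 in WT ESC 1 and 2 and WT iPSC 1, 639 and 573 in WT piPSC and 181 to 237 (median 192) in Nanog-null cells. It read 2362, 1406, 1553 and 1458 in pluripotent C57/B6 cells and 175 and 177 in WT MEF. Rpl22 read 1669, 1811 and 1369.9, 1486 and 1448 and 811 to 912 (median 842) in the 129/B6 sets, 7721, 4255, 7319 and 6569.5 in pluripotent C57/B6 cells and 584 and 611 in WT MEF. Rpl22l1 thus made up 43.0% and 39.6% of the Rpl22 level in WT piPSC and 20.9% to 33.0% elsewhere. Rps27l read 499, 572 and 571 in WT ESC 1 and 2 and WT iPSC 1, 406 and 298 in WT piPSC and 384 to 458 (median 433) in Nanog-null cells. It read 1926, 1111, 1807 and 1616 in pluripotent C57/B6 cells and 252 and 263 in WT MEF. Its change in Nanog-null ESC was -0.25 ± 0.19 (SE; edgeR adjusted p 0.254), which did not pass. Rps4x, the X-linked copy of the small-subunit protein S4, read 2702, 2891 and 2173, 2871 and 2639 and 1278 to 1505 (median 1340.2) in the 129/B6 sets, 10462, 6532, 9068 and 8472 in pluripotent C57/B6 cells and 1144 and 1161 in WT MEF.

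**Figure D3:**
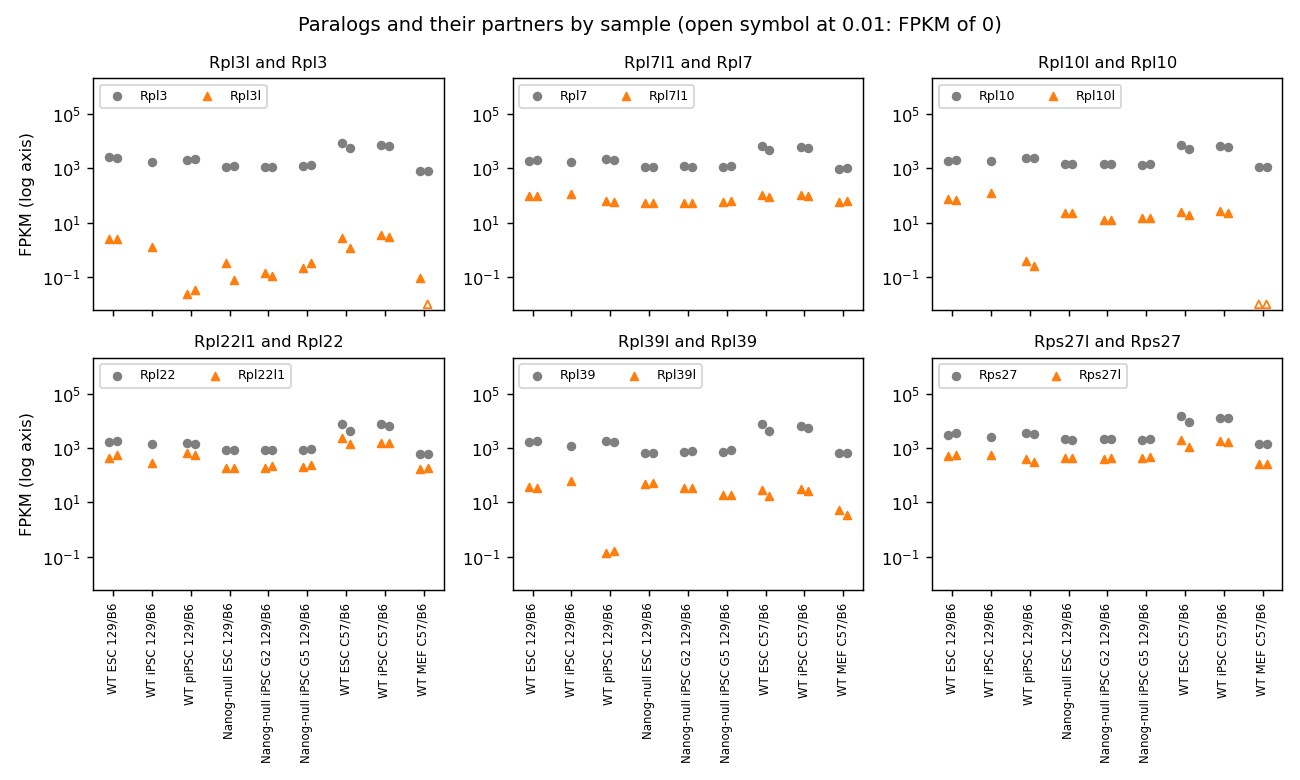
FPKM (log axis) of 6 paralogs (triangles) and their partners (circles) in each sample, by cell type and strain, with open symbols at 0.01 for an FPKM of 0. Rpl10l and Rpl39l are below 1 in WT piPSC, Rpl10l is at 0 in both WT MEF samples, and their partners Rpl10 and Rpl39 read 1145 and 1135 and 674 and 661 in WT MEF.

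Some members are also known for roles outside the ribosome. Rpl5 and Rpl11, which with 5S rRNA bind Mdm2 and stabilise p53, changed by -1.15 ± 0.17 (SE; edgeR adjusted p 1.36e-05) and -0.86 ± 0.17 (SE; edgeR adjusted p 0.00032) in Nanog-null ESC. Rpl5 read 1729, 1768 and 1304 in WT ESC 1 and 2 and WT iPSC 1, 1328 and 1234 in WT piPSC and 767 to 888 (median 799) in Nanog-null cells. It read 5800.0, 3438, 4627 and 4219 in pluripotent C57/B6 cells and 620.3 and 645 in WT MEF. Rpl11 read 1636, 1764 and 1589, 2113 and 2010.2 and 872 to 997 (median 920.0) in the 129/B6 sets, with piPSC highest. It read 9092, 5299, 7919 and 7144 and, in WT MEF, 750.2 and 748. Rps6, the protein phosphorylated by S6 kinase, changed by -0.82 ± 0.16 (SE; edgeR adjusted p 0.000294) in Nanog-null ESC. It read 2584, 2667 and 2105, 2629 and 2431 and 1354 to 1539 (median 1462) in the 129/B6 sets, 11996, 7224, 10132 and 9564 in pluripotent C57/B6 cells and 1185 and 1198 in WT MEF. Rpl38, needed for the translation of Hox mRNAs in the embryo, changed by -0.90 ± 0.21 (SE; edgeR adjusted p 0.00108) in Nanog-null ESC. It read 1913, 2115 and 1566, 1941 and 1712 and 1005 to 1184 (median 1106) in the 129/B6 sets, 10707, 5389.6, 8521 and 7644 in pluripotent C57/B6 cells and 880.2 and 863 in WT MEF. Rpsa changed by -0.69 ± 0.16 (SE; edgeR adjusted p 0.00134) in Nanog-null ESC and by -0.06 ± 0.18 (SE; edgeR adjusted p 0.804) in Nanog-null iPSC, where it did not pass.

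**Figure D4:**
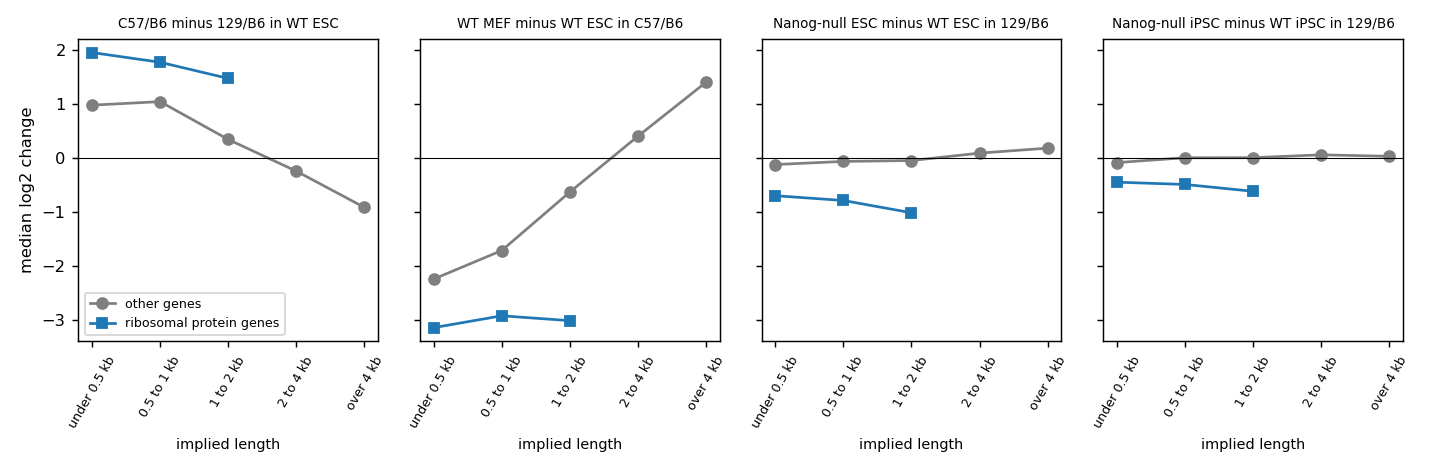
Median log2 change (y axis) by implied gene length (x axis, 5 bins) for ribosomal protein genes (blue squares, bins of at least 5 members) and other tested genes (grey circles) in 4 comparisons. Other genes run from 0.975 to -0.921 with length between the strains and from -2.25 to 1.40 in WT MEF, and from -0.126 to 0.178 in the Nanog-null ESC comparison.

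Other genes of translation and ribosome making were read from lists, whose counts stand against the shares of all genes tested. These were 34.8% higher and 35.0% lower between strains in WT ESC, 40.2% and 41.9% in WT MEF, 34.9% and 31.8% in Nanog-null ESC, 32.9% and 31.7% in Nanog-null iPSC, and 33.8% and 42.2% in WT piPSC. Of the 17 tested genes outside the family with TOP mRNAs, 16 were higher and 1, Pabpc1, lower in C57/B6 than 129/B6 WT ESC (median 1.42). In WT MEF 16 were lower and 1 higher (median -1.65), and in Nanog-null ESC 10 were lower and none higher (median -0.40). Eef1b2, an exchange factor of translation elongation, changed by 1.90 between strains in WT ESC and by -0.40 in Nanog-null ESC. Npm1, a nucleolar chaperone, changed by -0.73 in Nanog-null ESC, and Tpt1, another TOP mRNA, did not pass (edgeR adjusted p 0.983). Eef1a1 was left out, since its status marks too many fragments in some samples.

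Of 32 tested genes of ribosome biogenesis, 15 were higher and 8 lower in C57/B6 WT ESC (median 0.23), where 34.8% and 35.0% of all genes were, with Nhp2, a snoRNP protein, at 2.09 ± 0.18 (SE; edgeR adjusted p 3.18e-08) and Polr1a, the largest subunit of RNA polymerase I, at -1.59 ± 0.10 (SE; edgeR adjusted p 1.21e-09). In Nanog-null ESC 6 were higher and 13 lower (median -0.20), against 34.9% and 31.8% of all genes. In Nanog-null iPSC none were higher and 25 lower (median -0.54), against 32.9% and 31.7%. Nop56, a box C/D snoRNP protein, changed by -1.25 ± 0.11 (SE; edgeR adjusted p 5.62e-08) in Nanog-null iPSC and Dkc1, the pseudouridine synthase dyskerin, by -0.95 ± 0.09 (SE; edgeR adjusted p 6.63e-08). The iPSC comparison has 1 WT sample, WT iPSC 1. The FPKM of the list summed to 2922 in it, against 2442 and 2465 in WT ESC 1 and 2. Nop56 read 425 in WT iPSC 1 and 302 and 301 in WT ESC 1 and 2, and Dkc1 read 149 against 145 and 143. In WT piPSC 6 of the 32 genes were higher and 14 lower. The 76 genes of the mitochondrial ribosome, which serve another compartment, had 70 higher and 2 lower between strains in WT ESC (median 1.07) and 15 higher and 27 lower in Nanog-null ESC (median -0.13).

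All 6 tested hosts of snoRNAs, which guide rRNA modification, were lower in both Nanog-null comparisons (medians -0.78 and -1.23). The list held 9 symbols, of which these 6 were matched. The fall was also seen in other cells. In WT MEF 6 were lower and 0 higher than in WT ESC 3 and 4 (median -1.53). In WT piPSC 5 were lower and 0 higher than in WT ESC 1 and 2 (median -0.48). Of all genes tested, 41.9% and 42.2% were called lower in these comparisons. Gas5, a TOP transcript without a protein product, changed by -1.64 ± 0.15 (SE; edgeR adjusted p 6.15e-08) in Nanog-null ESC and Snhg3 by -1.89 ± 0.16 (SE; edgeR adjusted p 2.63e-08) in Nanog-null iPSC. Of 16 regulators of TOP mRNAs, 9 were higher and 6 lower in Nanog-null ESC, against 34.9% and 31.8% of all genes, and 4 higher and 7 lower in Nanog-null iPSC, against 32.9% and 31.7%. The regulators went in both directions in each comparison, and their counts were not tested against those shares. Larp1, the TOP-binding protein, changed by 0.28 ± 0.09 (SE; edgeR adjusted p 0.00909) in Nanog-null ESC and by -0.51 ± 0.09 (SE; edgeR adjusted p 0.00017) in Nanog-null iPSC, opposite directions in comparisons that share no sample, whose difference was not tested. Eif4ebp1, an mTOR-controlled translation repressor, was lower in both, at -1.06 and -0.78. Of the Myc family, Mycn changed by -0.52 ± 0.14 (SE; edgeR adjusted p 0.00312) in Nanog-null ESC and by -2.67 ± 0.14 (SE; edgeR adjusted p 1.26e-10) in Nanog-null iPSC, and Myc rose by 2.59 in Nanog-null ESC. Mycn had an FPKM of 17.8, 17.7 and 23.2 in WT ESC 1 and 2 and WT iPSC 1, 0.201 and 0.323 in WT piPSC and 2.88 to 12.4 in Nanog-null cells.

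The genes most like the family over the 17 samples, among 9399 with a mean FPKM of at least 5, were Gnb2l1 (RACK1, a small-subunit scaffold) and Mrpl13, a mitochondrial ribosomal protein. Each had a Pearson r of 0.995 with the members' mean log2(FPKM + 1). They were followed by 1700052N19Rik, Snrpd2, Nol7, Banf1, Psmb1, Naca, Lamtor2 and Mrpl24, down to 0.993. These values describe points that share libraries, depth and the strain split, and they carry no test. Comparisons that share samples, such as the strain and fibroblast comparisons with WT ESC 3 and 4 or the piPSC and Nanog-null comparisons with WT ESC 1 and 2, are not independent of each other.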

How the data were processed

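Per the labels' protocols, total RNA (about 250 ng) was made into TruSeq RNA v2 libraries. Per the submitters' processing notes, Cuffdiff 2.1.1, TopHat2 2.0.7, Bowtie2 2.0.5 and CASAVA were used, with the build names mm10 and NCBIM37; the notes give no role or order, and a strand setting is not given in the sources used here. Per the file headers, the authors deposited for each gene the raw fragments, which are estimated counts (96.4% to 98.0% of values whole within 0.01), scaled fragments (a signal multiplied by 1 factor per sample) and FPKM.

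Raw fragments were rounded and tested with edgeR 4.0.16 (R 4.3.3), with TMM scaling and the quasi-likelihood test, in 1 model of 9 means (group by strain) over all 17 samples. Genes were kept where 2 or more samples had an FPKM of 1 or more, and 19 genes whose deposited status marks a failed estimate or too many fragments were left out. P-values were adjusted by Benjamini-Hochberg over 15298 genes, with a threshold of 0.05. Shares of fragments were compared by 2-sided exact permutation tests. Implied length was scaled fragments over FPKM, divided by a slope fitted to the lengths of genes with a single listed transcript. It is an effective length, which the fitted lines put 165 to 186 bases below the transcript length. The test was checked on simulated data. Alternatives used other scalings, no filter, DESeq2 1.42.0, limma 3.58.1 on log2(FPKM + 1) and log2(FPKM + 0.1), each strain alone, the replicate block and leaving out each replicate.

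Values in every sample are given for the 5 members of each subunit with the highest mean FPKM, the paralogs and their partners, 7 members with other roles or used as references, and, in each comparison, the 3 called members with the largest rise, the 3 with the largest fall and up to 5 against the main direction, among members whose mean FPKM reached 5 in a compared group. Rpl15 and Rps20 and the other members named for their change against the family's sum were named after their values were seen. Values of some members are not reported here. The members and lists were chosen with earlier results of these data known. Same-numbered samples did not deviate together (correlations from -0.043 to 0.079). No replicate pair agreed within sampling noise (chi-square per gene from 1.56 to 28.27).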

Additional observations from a re-analysis of the deposited data

Results flagged for a closer look

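The change from WT ESC to WT iPSC was tested for a difference between 129/B6 and C57/B6, and 5 members passed (4 higher and 1 lower in C57/B6, edgeR adjusted p under 0.05), among them Rpl3l, Rpl13, Rpsa and Rpl10l. Rpsa differed by 0.81 ± 0.26 (SE; edgeR adjusted p 0.0361). The 129/B6 side has 1 WT iPSC sample, at passage 6, while the other samples compared were at passage 10 to 15. Leaving out WT ESC 3 gave 76 members, leaving out WT ESC 4 gave 13 and leaving out WT ESC 2 gave 2.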

How the results depend on the processing

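The directions of the strain and WT MEF comparisons held under each scaling tried apart from the members' own sum, which sets their median near 0 by construction. On that scaling the medians were 0.05 (strains, WT ESC), 0.01 (strains, WT iPSC), -0.03 (WT MEF), 0.01 (Nanog-null ESC, opposite in sign), 0.05 (Nanog-null iPSC, opposite in sign) and -0.01 (strain difference of iPSC minus ESC), and the members called were 33, 30, 40, 37 and 22 in the first 5 of these and 33 in WT piPSC. The share of all genes called on the members' own sum is not reported here. With library totals alone the medians were 1.33 and 1.56 between strains in WT ESC and WT iPSC and -2.65 in WT MEF, while the median of all genes shifted by 0.50 between strains. The members called were then 32 in WT piPSC, 2 between clones and 8 in the strain difference. RLE size factors gave 3 in the strain difference. limma gave 11 in WT piPSC with either pseudocount, 30 (FPKM + 1) and 28 (FPKM + 0.1) in Nanog-null iPSC and 0 in the strain difference (FPKM + 0.1). With the samples of 1 strain alone, the members called were 44 in WT piPSC, 78 in Nanog-null iPSC against WT iPSC, 7 between Nanog-null iPSC and ESC and 8 between clones.

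With the replicate block, whose numbers do not pair the samples, the medians were 2.26 between strains in WT ESC, -3.45 in WT MEF, -0.32 for WT iPSC against WT ESC in C57/B6 and -0.05 for the strain difference. With this block the members called were 1 in C57/B6 iPSC against ESC, 50 in WT piPSC, 78 in Nanog-null iPSC against WT iPSC, 7 between Nanog-null iPSC and ESC, 7 between clones and 13 in the strain difference.

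Leaving out each replicate in turn gave 80 to 81 members called and medians of 1.42 to 2.19 between strains in WT ESC, and 83 and -3.36 to -2.57 in WT MEF. It gave 0 to 80 and -0.26 to 0.52 for C57/B6 iPSC against ESC, 10 to 13 in WT piPSC, 62 to 69 in Nanog-null ESC, 32 to 48 in Nanog-null iPSC, and 2 to 76 and -0.02 to 0.79 for the strain difference. The share difference ranged from -4.22 to -3.24 points for Nanog-null cells, and from -0.430 to 0.548 for WT piPSC, where it turned negative without WT iPSC 1 (-0.430) and without WT piPSC 1 (-0.130). The cause of these shifts was not tested. The only WT iPSC sample of 129/B6 could not be left out of fits that need it. Counts of 3 or fewer fragments limit Rpl3l in WT piPSC and WT MEF and Rpl39l in WT piPSC.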

Other observations

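Pseudogene entries of ribosomal protein genes (56 symbols ending in -ps) held a small part of all fragments, 0.0224% to 0.0720% in WT ESC and WT iPSC of both strains. WT iPSC 1 had the highest value, 0.0720%, and WT ESC 1 and 2 had 0.0225% and 0.0224%. WT MEF had 0.00401% and 0.00406%, and Nanog-null samples 0.0257% to 0.0340%. How fragments were divided between a gene and its pseudogene is not given in the sources used here.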
